A study of Homo sapiens with 6 samples.

Results

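Feedback genes of the Wnt/beta-catenin pathway were followed in GFP-positive HEK293 cells after co-culture with cells that produce reactive oxygen species (ROS). The set held AXIN2, LEF1, TCF7, TCF7L2, NKD1, SP5, DKK1, RNF43, ZNRF3 and LGR5. These 10 genes were chosen by name, all 10 were found among the 23686 genes in the files, and all 10 had enough reads to be tested. HEK293 is a widely used human cell line derived from embryonic kidney. In the co-culture group, 3 samples of GFP-positive cells had shared a dish for 10 h with HEK293 cells that carried DAAO and were given 25 µM D-alanine, in high-glucose DMEM with serum. DAAO usually stands for D-amino acid oxidase, which forms hydrogen peroxide when it acts on D-amino acids such as D-alanine. The 3 control samples, titled Wt controls, were GFP-positive HEK293 cells as well, and cells of both groups were collected by fluorescence-activated sorting. The labels give all samples the same treatment protocol, so whether controls received D-alanine or unmodified partner cells is not known from them. They also do not say whether the replicates came from separate cultures, so p-values measure only the spread between these samples.

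In canonical Wnt signalling, a secreted Wnt protein binds a Frizzled receptor and an LRP5 or LRP6 co-receptor. The destruction complex, which holds AXIN and APC proteins, then stops marking beta-catenin for breakdown, and beta-catenin enters the nucleus and acts with factors of the TCF/LEF family. Several genes switched on in this way code for brakes on the same pathway, so their transcripts are widely used to read its activity. In the intestine and other epithelia, LGR5 marks Wnt-dependent stem cells.

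The short core that TCF/LEF factors recognise is shown here in start-site windows of the set, because beta-catenin acts with these factors. Whether the core makes these genes targets was not tested. Windows of 250 bases before to 50 bases after an annotated start were taken from RefSeq (GRCh38.p14), and 10 windows were found for 6 of the 10 genes. AXIN2, LGR5, NKD1 and ZNRF3 had no window in the source used and were not searched. Both strands were searched for CTTTGA and CTTTGT, which share their first letters and so never match at the same place on 1 strand. A match occurred in 6 of the 10 windows, belonging to 5 genes, and in 26.2% of all 35116 windows of this length. Among 98 windows of the other Wnt genes treated below, 14.3% held a match. For TCF7 and TCF7L2 the most upstream window held 0 matches, and a match lay only in a window further downstream. A gene with several windows had more places for a match. SP5 held 4 matches and DKK1 held 3, the highest numbers among the 6 genes with a window, and the only LEF1 window found held 0. Whether that window covers the main LEF1 start was not examined, and starts outside the windows found were not searched. Capitals mark the matches, those of the other strand as their reverse complements, in the windows of SP5 (chr2:170715087-170715386, plus strand), DKK1 (chr10:52314031-52314330, plus strand) and LEF1 (chr4:108166252-108166551, minus strand), each written 5′ to 3′.
SP5: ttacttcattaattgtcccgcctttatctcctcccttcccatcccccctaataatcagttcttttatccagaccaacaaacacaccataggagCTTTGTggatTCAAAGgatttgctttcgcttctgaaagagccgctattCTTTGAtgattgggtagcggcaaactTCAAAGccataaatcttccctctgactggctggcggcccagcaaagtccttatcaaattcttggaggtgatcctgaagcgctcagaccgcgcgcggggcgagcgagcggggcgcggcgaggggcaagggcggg
DKK1: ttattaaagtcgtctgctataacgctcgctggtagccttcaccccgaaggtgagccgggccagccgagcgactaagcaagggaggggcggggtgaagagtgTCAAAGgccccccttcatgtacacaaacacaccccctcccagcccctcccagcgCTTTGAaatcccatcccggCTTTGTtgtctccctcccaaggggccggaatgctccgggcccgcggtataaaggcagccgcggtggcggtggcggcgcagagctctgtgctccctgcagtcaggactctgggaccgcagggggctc
LEF1: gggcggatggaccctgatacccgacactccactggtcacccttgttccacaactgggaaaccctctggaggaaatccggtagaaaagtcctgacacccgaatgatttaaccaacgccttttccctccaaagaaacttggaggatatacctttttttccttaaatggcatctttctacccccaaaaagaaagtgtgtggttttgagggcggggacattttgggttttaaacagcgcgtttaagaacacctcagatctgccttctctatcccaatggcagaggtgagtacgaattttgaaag
The left ends of the SP5 matches lay 157, 147, 109 and 83 bases before the start, and those of DKK1 lay 149, 95 and 76 bases before it. The SP5 match at 109 bases extended to CTTTGAT, a longer form held by 2.62% of all windows. A match is a run of letters and not a measured binding site.

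The libraries held between 19091085 and 36250314 gene-assigned reads on the expected strand, and a single read was worth 0.0276 to 0.0524 CPM, the unit of reads scaled to library size. Library sizes were adjusted by trimmed means of M-values (TMM). Differences are log2 fold changes of co-culture over control from edgeR's quasi-likelihood test, with Benjamini-Hochberg adjustment over all 14582 tested genes and a threshold of 0.05. By that rule 704 genes were called, 388 higher and 316 lower, and with total-count scaling 310 were higher and 572 lower. Reads on the strand opposite to the expected one made up a median of 0.124% and 0.211% in co-culture libraries 2 and 3 and between 1.57% and 1.75% in the other 4, so a fit with this strand class as a batch term compares co-culture library 1 with the controls. Of the 8 HEK293 markers, all had reads. Their summed level was 1889 to 1992 CPM in controls and 2268 to 2489 in co-culture, led by VIM. Of these 8, VIM alone passed (log2 fold change 0.40, edgeR adjusted p 0.00793). PAX2 and LIN28B had negative log2 fold changes and did not pass (-0.24 and -0.11, edgeR adjusted p 0.368 and 0.533). Leukocyte, endothelial and hepatocyte markers summed to at most 1.96, 0.115 and 0.190 CPM. The 3 fibroblast markers summed to 9.86 to 11.8 CPM in controls and 5.98 to 7.70 in co-culture. LUM made up nearly the whole and passed as lower (-0.67, edgeR adjusted p 0.0293), while COL1A2 and DCN reached at most 0.101 and 0.404 CPM. DAO, the human gene for the enzyme, had 0 reads in all 6 libraries. The part of VIM, LUM and the strand class in the results was not tested beyond the values given here. The partner cells are of the same line and could not be told apart by these genes. In bulk RNA, more cells that express a gene and more RNA per cell cannot be told apart either.

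Of the 10 feedback genes, LGR5 alone passed the threshold, and it rose. By this rule 4.83% of all tested genes were called, and 2.66% were called as higher. NKD1 had the next largest difference, also with higher values in co-culture, and missed the threshold. The other 8 genes had log2 fold changes between -0.13 and 0.10. AXIN2, the target most often used as a readout of the pathway, stood at -0.13. At an unadjusted p under 0.05 there were 2 of the 10 genes, against 23.2% of all tested genes. The groups did not overlap for 2 of the 10, against 29.3% of all tested genes. The median log2 fold change was 0.01 over the set and 0.00 over all tested genes, and 5 genes had higher and 5 lower fitted values.

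**Figure D1:**
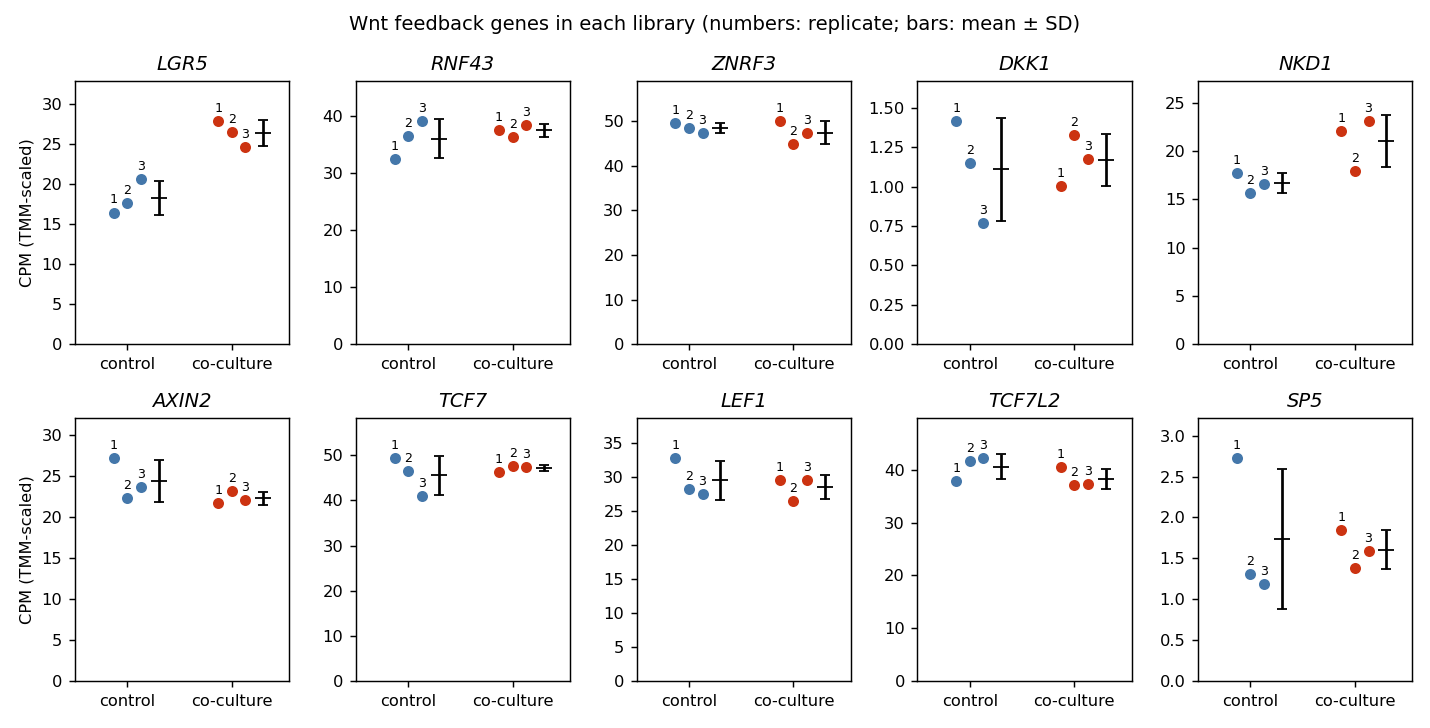
TMM-scaled CPM (vertical axes, from 0) of the 10 feedback genes in the 3 control (blue) and 3 co-culture (red) libraries, numbered by replicate, with mean ± SD beside the points. LGR5 and NKD1 are the genes whose groups do not overlap, and control 1 is the highest control for SP5, AXIN2 and LEF1.

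LGR5 codes for a receptor of R-spondins, secreted proteins that strengthen Wnt signalling. Its level was 16.4, 17.6 and 20.6 CPM in controls 1, 2 and 3. In co-culture libraries 1, 2 and 3 it was 27.8, 26.5 and 24.6 CPM. Each co-culture library thus lay above each control, with co-culture 1 the highest and control 1 the lowest. The means were 18.2 ± 2.17 and 26.3 ± 1.60 CPM (SD, n = 3 each). The log2 fold change was 0.52 (SE 0.10, 95% interval 0.31 to 0.74, edgeR adjusted p 0.0176), an increase of 43.6% with an interval from 23.6% to 66.9%. It rested on 3197 reads in all, and forward-strand reads made up 0.776% of the reads over the gene. The fold change lay between 0.45 and 0.63 in 15 other settings, and the adjusted p between 0.000722 and 0.175. The call held in 10 of the 15 settings, and among those without it were leaving out control 2, co-culture 1 or co-culture 2 (0.50, 0.49 and 0.52, edgeR adjusted p 0.106, 0.0968 and 0.108) and the strand-class batch term (0.61, edgeR adjusted p 0.175).

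RNF43 and ZNRF3 are related membrane E3 ubiquitin ligases that remove Frizzled receptors from the cell surface, and R-spondin bound to LGR5 or its relatives holds them back. RNF43 stood at 32.3, 36.5 and 39.1 CPM in controls 1 to 3 and at 37.6, 36.3 and 38.4 CPM in co-culture libraries 1 to 3. Its groups overlapped, with the lowest and the highest value both among the controls. The log2 fold change was 0.06 (SE 0.08 and edgeR adjusted p 0.713), with an interval from -0.12 to 0.23. ZNRF3 stood at 49.5, 48.5 and 47.5 CPM in controls and 50.04, 44.9 and 47.5 CPM in co-culture. The controls lay within the range of the co-culture libraries. Its log2 fold change of -0.03 (SE 0.07 and edgeR adjusted p 0.820) had an interval from -0.18 to 0.12. These intervals leave room for an increase of up to 17.5% in RNF43 and 8.40% in ZNRF3, both below the lower limit for LGR5, though the difference between genes was not tested.

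DKK1 codes for a secreted antagonist that binds the LRP5 and LRP6 co-receptors. It was counted at 28, 22 and 20 reads in controls 1 to 3 and at 20, 28 and 42 reads in co-culture libraries 1 to 3. These made 1.41, 1.15 and 0.767 CPM against 1.00, 1.33 and 1.17 CPM, so the groups overlapped. The log2 fold change of 0.10 (SE 0.29 and edgeR adjusted p 0.868) had an interval from -0.54 to 0.74. At this depth a difference of the size of that in LGR5 would not have been distinguishable from none.

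NKD1 codes for a cytoplasmic inhibitor that binds Dishevelled, the protein that carries the signal from the receptors to the destruction complex. It stood at 17.7, 15.7 and 16.6 CPM in controls 1, 2 and 3. The co-culture libraries held 22.1, 17.9 and 23.1 CPM. Co-culture library 2 lay just above control 1, and co-culture libraries 1 and 3 stood further apart. The means were 16.6 ± 1.02 and 21.0 ± 2.74 CPM (SD, n = 3 each). The log2 fold change of 0.34 (SE 0.11, interval 0.10 to 0.58) had an unadjusted p of 0.00870 and an edgeR adjusted p of 0.0908, so it did not pass. Without control 1 the value was 0.39 and passed (edgeR adjusted p 0.0151). It was 0.41 under the strand-class batch term (edgeR adjusted p 0.349), and in 15 other settings it lay between 0.27 and 0.44, with adjusted p from 0.0151 to 0.349.

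AXIN2 codes for a scaffold of the destruction complex and is induced by beta-catenin itself. Its level was 27.2, 22.3 and 23.6 CPM in controls 1 to 3 and 21.7, 23.1 and 22.01 CPM in co-culture libraries 1 to 3. The groups overlapped, and control 1 was the highest of the 6 libraries. The log2 fold change was -0.13 (SE 0.09, interval -0.33 to 0.07, edgeR adjusted p 0.412). Without control 1 it was -0.05 (edgeR adjusted p 0.707), and it stayed under 0 in all 15 other settings. The interval reaches an increase of 4.69% at its upper end.

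**Figure D2:**
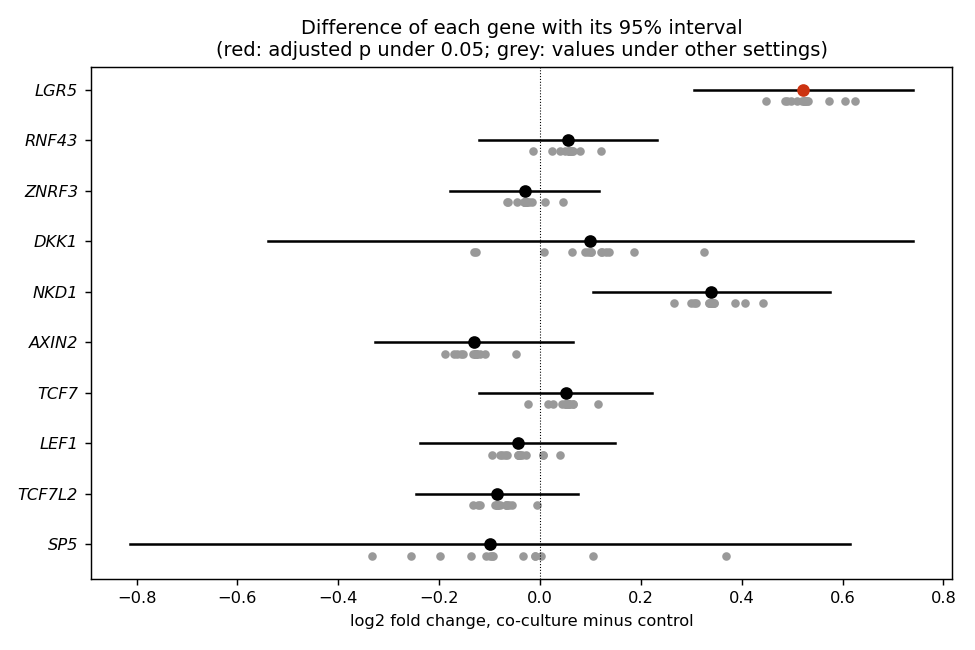
Log2 fold change of co-culture over control (horizontal axis) for each feedback gene with its 95% interval, and below each line the values under the other settings (grey). The LGR5 interval runs from 0.31 to 0.74 and that of NKD1 from 0.10 to 0.58, while the other 8 intervals include 0.

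TCF7, LEF1 and TCF7L2 code for the DNA-binding factors through which beta-catenin acts, and TCF7 and LEF1 are also targets of it. TCF7 stood at 49.4, 46.5 and 40.9 CPM in controls and at 46.4, 47.7 and 47.4 CPM in co-culture, a tighter group that lay within the range of the controls. Its log2 fold change was 0.05 (SE 0.08 and edgeR adjusted p 0.735). LEF1 stood at 32.8, 28.1 and 27.4 CPM in controls and at 29.5, 26.5 and 29.5 CPM in co-culture, with overlap and with control 1 the highest. Its log2 fold change was -0.04 (SE 0.09 and edgeR adjusted p 0.802). TCF7L2 stood at 37.9, 41.7 and 42.3 CPM in controls and at 40.5, 37.1 and 37.4 CPM in co-culture. Control 1 lay among the co-culture values, so these groups overlapped too. Its log2 fold change was -0.09 (SE 0.07 and edgeR adjusted p 0.518). The 95% intervals of the 3 factors lay within -0.25 and 0.22. Counts per gene cannot show the shorter LEF1 and TCF7 forms that lack the part that binds beta-catenin.

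SP5 codes for a zinc-finger factor that is itself a direct Wnt target and dampens other targets. Its window, shown above, held the most TCF/LEF cores among the 6 genes with a window, and its level was among the lowest. It was counted at 54, 25 and 31 reads in controls 1 to 3 and at 37, 29 and 57 reads in co-culture libraries 1 to 3. The levels were 2.73, 1.30 and 1.19 CPM in controls against 1.85, 1.38 and 1.59 CPM in co-culture. Control 1 was the highest of the 6 libraries, and each co-culture library lay above controls 2 and 3. The log2 fold change was -0.10 (SE 0.32, interval -0.81 to 0.61, edgeR adjusted p 0.885) and turned to 0.37 without control 1 (edgeR adjusted p 0.327). Few reads and that library limit what can be said of this gene.

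**Figure D3:**
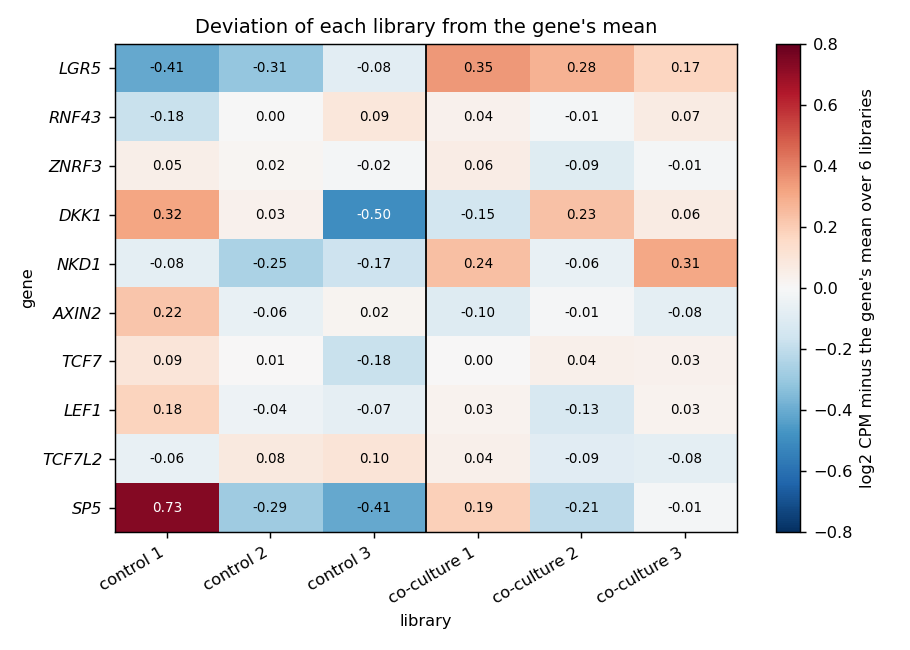
Log2 CPM of each feedback gene (rows) in each library (columns) minus the gene's mean over the 6 libraries, with red above and blue below the mean. LGR5 is negative in the 3 controls and positive in the 3 co-culture libraries, whereas SP5 is led by control 1 at 0.73.

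Control 1 was an extreme among the controls for each of the 10 genes, the highest for 7 and the lowest for TCF7L2, RNF43 and LGR5. Over all tested genes control 1 was an extreme in 82.4%. On the log2 scale it stood above the mean of the other controls by 1.08 for SP5, 0.55 for DKK1, 0.24 for AXIN2 and 0.24 for LEF1. Without control 1, LGR5 was at 0.45 (edgeR adjusted p 0.00200), the lowest value of its 15 other settings. TCF7L2 was then at -0.13 and ZNRF3 at -0.015. The part of control 1 in the differences between the groups was not tested beyond the values without it.

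To compare genes with each other, CPM was divided by the length of each gene's longest coding transcript in GENCODE release 29. In the controls the order of levels was TCF7, TCF7L2, LEF1, ZNRF3, RNF43, AXIN2, LGR5, NKD1, SP5 and DKK1. TCF7 stood at 13.7 ± 1.30 CPM per kb, AXIN2 at 5.73 ± 0.591, LGR5 at 3.95 ± 0.470 and DKK1 at 0.620 ± 0.182 (SD, n = 3). The control ranges of neighbours overlapped for TCF7L2 with LEF1, ZNRF3 with RNF43, RNF43 with AXIN2, NKD1 with SP5, and SP5 with DKK1. LGR5 was clear of AXIN2 in the controls but not in co-culture, where its mean was 5.71 CPM per kb against 5.23 for AXIN2. The order depends on the length used: with the union of all exons TCF7 moved from place 1 to place 6, and NKD1 has a coding transcript of 17.1 kb, which lowers its value.

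Among 11646 other tested genes with a mean of at least 5 CPM, those whose log2 CPM followed AXIN2 most closely over the 6 libraries were RSG1, DNAH11 and HMG20B (Pearson r 0.990, 0.988 and 0.985). As with AXIN2, each of them was highest in control 1. For ZNRF3, which had the highest mean CPM of the set, the closest were MLF1, INTS9 and ARIH1 (r 0.962, 0.956 and 0.9498). With 6 libraries and so many candidates, these are descriptions only.

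The rest of the pathway was read from a list of 103 other Wnt genes, all found in the files, TBXT and CEMIP under older symbols. Of these, 91 had enough reads to be tested, and 3 passed the threshold, 1 higher and 2 lower. That is 3.30% of the tested list, against 4.83% of all tested genes. Its median log2 fold change was -0.05, against 0.00 over all tested genes, with 37 positive and 54 negative values. No overlap between the groups was seen for 25.3% of the list, against 29.3% of all tested genes. At an unadjusted p under 0.05 there were 4 higher and 16 lower of the 91 tested, against 1706 higher and 1671 lower, or 23.2%, of all tested genes.

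Among the 18 tested genes for Wnt ligands and their handling, 0 passed with edgeR, and at an unadjusted p under 0.05 there were 1 higher and 4 lower, where 23.2% of all tested genes lay under it in either direction. WLS, which carries Wnt proteins to the surface, and WNT5A, a ligand known mainly for signalling without beta-catenin, had the most reads. Their log2 fold changes were -0.12 (SE 0.06 and edgeR adjusted p 0.288) and -0.21 (SE 0.09 and edgeR adjusted p 0.173). The R-spondins, which are the ligands of LGR5, were looked up after their values had been seen. RSPO3 was at 1.95 CPM in controls and 1.04 in co-culture, with a log2 fold change of -0.92 (SE 0.25 and edgeR adjusted p 0.0556). RSPO2 was at 1.85 and 1.20 CPM (-0.58, SE 0.26 and edgeR adjusted p 0.199), and RSPO4, with the opposite sign, at 1.32 and 1.71 CPM (0.38, SE 0.34 and edgeR adjusted p 0.547). None of the 3 passed, and each rested on few reads, between 21 and 53 per library. The groups overlapped for RSPO4 and not for RSPO2 or RSPO3, where 29.3% of all tested genes had no overlap. RSPO1 had too few reads to be tested.

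Among the 18 receptor genes, 0 passed, and 1 higher and 4 lower had an unadjusted p under 0.05, against the same 23.2% of all tested genes. PTK7, a Wnt co-receptor, and LRP6 had log2 fold changes of 0.18 (SE 0.07 and edgeR adjusted p 0.157) and -0.07 (SE 0.09 and edgeR adjusted p 0.640). The Frizzled receptors, on which RNF43 and ZNRF3 act, were singled out after their values were seen. Of these 10 genes 4 had higher and 6 lower fitted values, and 0 passed. At an unadjusted p under 0.05 there were 0 higher and 4 lower, against 23.2% of all tested genes. These 4, FZD4, FZD6, FZD9 and FZD10, were also those without overlap, against 29.3% of all tested genes. FZD4 had the smallest adjusted p of them (-0.22, SE 0.06 and edgeR adjusted p 0.0644). LGR4, also named after its values were seen, is the relative of LGR5 with the most reads and stood at 110.1 CPM in controls and 118 in co-culture, with a log2 fold change of 0.10 (SE 0.08 and edgeR adjusted p 0.499). The difference between LGR5 and LGR4 was not tested.

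Among the 14 tested extracellular antagonists, 0 passed, and 1 higher and 2 lower had an unadjusted p under 0.05, against 23.2% of all tested genes. The groups did not overlap for 1 higher and 5 lower, against 29.3% of all tested genes. KREMEN1, a partner of DKK proteins, had a log2 fold change of 0.00 (SE 0.09 and edgeR adjusted p 0.985), and APCDD1, an inhibitor at the membrane, had one of -0.14 (SE 0.08 and edgeR adjusted p 0.287). The 3 with an unadjusted p under 0.05 were NOTUM, FRZB and SFRP2, named after their values had been seen. NOTUM, an enzyme that inactivates Wnt proteins and is itself a target, stood at 3.04 CPM in controls and 4.28 in co-culture (0.51, SE 0.23 and edgeR adjusted p 0.206), with no overlap. FRZB and SFRP2, secreted Frizzled-related proteins that bind Wnt ligands, had lower values without overlap, at -0.79 (SE 0.23 and edgeR adjusted p 0.0743) and -0.58 (SE 0.22 and edgeR adjusted p 0.151). In the group of 15 transducers and destruction complex genes, 0 passed and 0 had an unadjusted p under 0.05. TNKS2, a tankyrase that marks AXIN for breakdown, and CSNK1E, a kinase, had log2 fold changes of 0.04 (SE 0.06) and 0.07 (SE 0.07), with edgeR adjusted p of 0.734 and 0.585.

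Beta-catenin itself, CTNNB1, stood at 526 CPM in controls and 556 in co-culture, a log2 fold change of 0.08 (SE 0.07 and edgeR adjusted p 0.525). CHD8, a chromatin remodeller that represses beta-catenin targets, had -0.10 (SE 0.07 and edgeR adjusted p 0.425). In this group of 12 nuclear genes, 0 higher and 2 lower passed, against 4.83% of all tested genes. At an unadjusted p under 0.05 there were 0 higher and 3 lower, against 23.2% of all tested genes. The groups did not overlap for 1 higher and 4 lower, against 29.3% of all tested genes. The genes past the threshold, TLE1 and TLE4, fell. They are co-repressors of the Groucho family that sit on TCF/LEF factors when beta-catenin is absent, and they also serve other factors. TLE1 was 78.9, 76.0 and 76.6 CPM in controls and 60.0, 64.2 and 63.7 CPM in co-culture. TLE4 was 74.0, 78.1 and 81.9 CPM in controls and 64.4, 61.1 and 62.5 CPM in co-culture. Each co-culture library lay below each control for both genes. The log2 fold changes were -0.30 (SE 0.06) and -0.32 (SE 0.06), each with an edgeR adjusted p of 0.0214. TLE2 and TLE3, whose groups did not overlap either, had -0.44 (SE 0.19 and edgeR adjusted p 0.219) and -0.18 (SE 0.06 and edgeR adjusted p 0.100) and were named after their values had been seen. TLE2 was 31.0, 18.3 and 18.5 CPM in controls and 15.8, 16.2 and 17.8 CPM in co-culture. Control 1 thus stood far above the other controls, which lay close to the co-culture values. TLE1 and TLE4 each kept their call in 9 of 15 other settings. They lost it with the strand-class term (-0.36 and -0.28, edgeR adjusted p 0.194 and 0.310). They also lost it without control 2 (-0.31 for both, edgeR adjusted p 0.0998 and 0.108) or any 1 co-culture library, where values ran from -0.33 to -0.27. Their adjusted p over 15 other settings spanned 0.00231 to 0.194 for TLE1 and 0.000380 to 0.310 for TLE4.

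**Figure D4:**
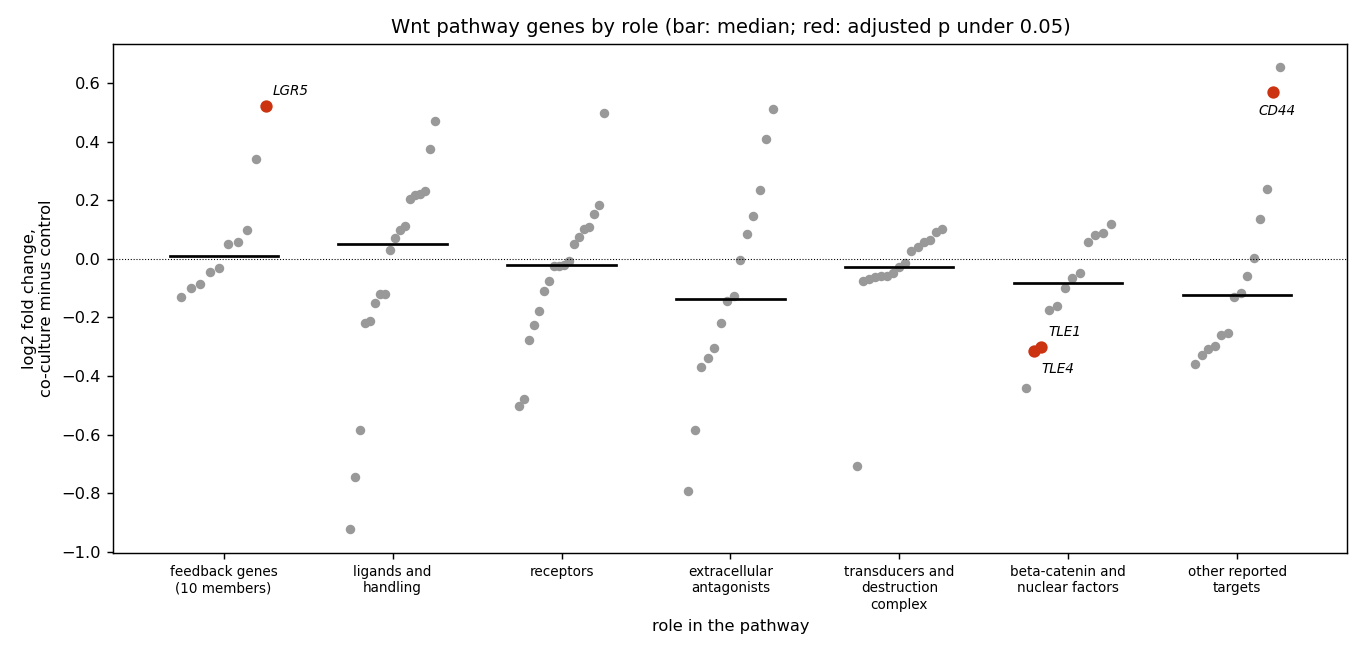
Log2 fold change of co-culture over control (vertical axis) for the 10 feedback genes and 91 other tested Wnt genes, placed by role, with a bar at each median and red points past the threshold. LGR5 and CD44 are the red points above 0, and TLE1 and TLE4 are those below 0.

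Of 14 tested genes reported elsewhere as Wnt targets, CD44 rose, and no other passed, where 4.83% of all tested genes passed. The median log2 fold change of the 14 was -0.12, with 5 positive and 9 negative values. At an unadjusted p under 0.05 there were 1 higher and 3 lower, against 23.2% of all tested genes. The groups did not overlap for 2 higher and 2 lower, against 29.3% of all tested genes. CEMIP, 1 of the 2 higher and named after its values were seen, was counted at only 9 to 29 reads per library. Forward-strand reads, opposite to the expected strand, made up 75.2% of the reads over CEMIP. CD44, a receptor for hyaluronan that many pathways induce, was 30.6, 28.8 and 28.5 CPM in controls and 44.4, 43.2 and 43.1 CPM in co-culture, far from overlap. Its log2 fold change was 0.57 (SE 0.07 and edgeR adjusted p 0.00171). It kept its call in 14 of 15 other settings and missed it with the strand-class term (0.60, edgeR adjusted p 0.0601), with a lowest adjusted p of 4.94e-08. CCND1, a cyclin, and BAMBI, a decoy receptor, had the most reads of the targets that did not pass, at 0.14 (SE 0.07 and edgeR adjusted p 0.262) and -0.31 (SE 0.12 and edgeR adjusted p 0.163). The 3 lower targets at an unadjusted p under 0.05 were BAMBI, MYC and TNFRSF19, the last 2 named after their values were seen. MYC was at -0.33 (SE 0.10 and edgeR adjusted p 0.0939) and TNFRSF19 at -0.25 (SE 0.11 and edgeR adjusted p 0.179), both without overlap.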

How the data were processed

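RNA of 6 samples was made into stranded mRNA libraries and sequenced, per the labels. What the authors deposited are whole-number read counts for each gene and library, neither normalised nor pooled. FastQC, STAR 2.53a and genome build hg18 are named in the submitters' processing notes. The annotation release is not given in the sources used here, so genes go by the symbols in the files, and RefSeq windows (GRCh38.p14) and GENCODE lengths come from another build. Multimapping reads stand in a summary line and made up 6.48% to 8.42%.

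Reverse-strand counts went into edgeR 4.0.16 under R 4.3.3, in a model of group alone. The 4 summary lines, 24.2% to 28.5% of reads, stayed out of library sizes. A filterByExpr step (minimum count 10) kept 14582 genes. Standard errors came from dividing each absolute log2 fold change by the root of its F statistic, and 95% intervals were taken from the t distribution. A count of 0 allows up to 3 reads, 0.0828 to 0.157 CPM, for counting error only. Libraries of a group differed by more than sampling noise (chi-square per degree of freedom 4.73 to 18.5). The script was tested on simulated data.

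The members and lists were chosen with earlier results of these data known. A gene of the pathway list is not reported here and was left out of that list's counts. The text names the 10 members, list genes past the threshold, the 2 of highest mean CPM among the others in each role, and genes marked as named after their values were seen. Alternatives were RLE and total-count scaling, DESeq2 1.42.0, limma-voom (limma 3.58.1), no filter or at least 50 reads in 3 libraries, unstranded counts, the replicate number as a block, the strand class as a batch term, and each library left out.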

Additional observations from a re-analysis of the deposited data

How the results depend on the processing

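The replicate numbers were shared by the groups, but libraries of the same number did not deviate together: the correlations of their deviations over 11647 genes were -0.07, -0.19 and -0.18, and no library correlated best with its own number, so the numbers were not taken as a pairing. With the number as a replicate block, 0 feedback genes, 1 other Wnt gene and 164 genes in all passed, against 1, 3 and 704, and LGR5 stood at 0.53 (edgeR adjusted p 0.0692), TLE1 at -0.30 (0.0833) and TLE4 at -0.31 (0.0811), all past the threshold without the block. Under the strand-class batch term these counts were 0, 0 and 29. Total-count scaling gave 6 other Wnt genes. Leaving out 1 library gave 0 to 2 feedback genes, 1 to 21 other Wnt genes and 65 to 3069 genes in all, the highest numbers without control 1. Signs turned for genes that did not pass. With that batch term LEF1 was at 0.0057, ZNRF3 at 0.045, SP5 at 0.10 and DKK1 at -0.13, and with limma-voom SP5 was at 0.0019. Leaving out 1 library gave -0.094 to 0.039 for LEF1, -0.024 to 0.11 for TCF7, -0.33 to 0.37 for SP5, -0.13 to 0.32 for DKK1, -0.014 to 0.12 for RNF43 and -0.065 to 0.0090 for ZNRF3, with control 1 or control 3 left out at each of these ends other than those of ZNRF3. AXIN2, TCF7L2, NKD1 and LGR5 kept their sign in all 15 settings. With at least 50 reads in 3 libraries SP5 and DKK1 were not tested. A leave-one-out fit keeps 2 libraries in an arm. With 20 to 57 reads per library, SP5 and DKK1 had intervals wide enough to hold a change as large as that of LGR5.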
